A study of Mus musculus with 6 samples.

Results

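The transcripts described here encode 10 proteins that detect broken DNA or stalled replication and pass the signal on: the apical kinases Atm and Atr, the checkpoint kinases Chek1 and Chek2, the break sensors Mre11a, Rad50 and Nbn, the mediator Mdc1, and the Atr-branch factors Rad17 and Topbp1. They were taken by gene symbol from a table of 32285 genes, and all 10 were present in it. All 10 passed the filter on low counts, which left 15104 genes for testing, and they did so in both groups, since the lowest count of any of them in any library was 568.

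Double-strand breaks are bound by the complex of MRE11, RAD50 and NBN, which recruits and activates the kinase ATM. ATM phosphorylates histone H2AX around the break, MDC1 binds that mark and holds the signal there, and ATM activates CHK2, the product of Chek2. Single-stranded DNA at stalled forks is instead read by ATR, for which RAD17 loads a checkpoint clamp and TOPBP1 acts as an activator, and ATR activates CHK1, the product of Chek1. In germ cells the same proteins also act on the programmed breaks of meiosis. Most of the signalling is carried by phosphorylation, which RNA counts do not measure.

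GS cells are cultured mouse spermatogonia that contain stem cells and are grown on embryonic fibroblast feeders with GDNF and FGF2. The lines came from testes of DBA/2 pups a few days old carrying the transgene Tg14(act-EGFP-OsbY01), which puts EGFP under an actin promoter, and both groups shared this background, the freezing and the thawing. In 3 libraries titled Space the cells had been frozen for 6 months on the International Space Station, and in 3 titled Ground for 6 months on Earth. Per the study, RNA was taken on the day after thawing, without passage. The treatment label of each library contradicts its title, so Space and Ground follow the titles, and each direction would turn if the treatment label were right. The study speaks of 3 lines for Space and Ground, but nothing in the labels says which libraries share a line or a culture. A line shared between the groups would pair libraries, and the main test used no pairing. The p-values thus measure only the spread between these libraries, which may be technical.

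Totals were 19015985 to 24110916 counts per library, and the counts of the 10 genes ran from 568 to 8412, where counting error is 4.20% and 1.09%. Mitochondrial transcripts took 2.51% to 7.12% of the counts in Space and 3.09% to 11.5% in Ground, highest in Space-2 and Ground-2 (Space minus Ground -2.62 percentage points, 2-sided exact permutation p = 0.5, smallest possible 0.1; -0.246 percentage points without Ground-2). The 11 spermatogonial markers, among them Ddx4, Dazl, Zbtb16 and Ret, were present in all libraries, at a summed 3571 to 3669 CPM in Ground and 3618 to 3652 in Space. CPM here is a count divided by its library's size, after that size was scaled with the TMM method (trimmed mean of M-values). The 15 feeder fibroblast markers summed to 622.7 to 665.2 CPM in Ground and 456.9 to 652.5 in Space, the sum of 456.9 being that of Space-1. A lower mean in Space was found for 14 of the 15 (median log2 fold change -0.28), beside 7743 lower of 15104 tested genes. In edgeR 3 of the 15 had an unadjusted p under 0.05, beside 0.609% of all tested genes. None passed the test after adjustment (edgeR adjusted p = 0.9999 for each). In bulk RNA a different number of cells of a type and a different amount of RNA per cell cannot be told apart. The 8 meiotic genes summed to 327.5 to 352.4 CPM in Ground and 321.0 to 338.9 in Space. The log2 fold change of Space over Ground was negative for 8 of 8 (median -0.11), beside 7743 of 15104 tested genes. The groups did not overlap for 2 of 8 (3.59% of all tested genes), and none passed the test. Of the other lists, 8 macrophage and endothelial genes summed to 24.99 to 42.8 and 27.8 to 39.9, and 6 Sertoli and Leydig genes to 29.3 to 31.5 and 29.2 to 30.7, with Hsd3b1 at 0 counts in all libraries.

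On GRCm38, 5 of the 10 genes lie on chromosome 9: Mre11a at 14784654 to 14837123, Chek1 at 36708482 to 36727065, Atm at 53439149 to 53536740, Atr at 95857597 to 95951781 and Topbp1 at 103305215 to 103350428. Nbn is on chromosome 4 (15957925 to 15992589), Chek2 on chromosome 5 (110839979 to 110874145), Rad50 on chromosome 11 (53649519 to 53707319), Rad17 on chromosome 13 (100617164 to 100651051) and Mdc1 on chromosome 17 (35841515 to 35859670). All are protein-coding, and counts cover their exons, untranslated regions included. Exons of other genes overlap 3 of them. The antisense genes 1700065D16Rik and Gm16794 cover 3.07% and 1.96% of Atr exon sequence, the small nuclear RNA gene Gm24004 0.753% of Atr on the same strand, Ankrd49 2.60% of Mre11a and Ak6 0.904% of Rad17, the latter pair on the opposite strand. Whether strand was used in counting is not given in the sources used here, and reads in these stretches could belong to either gene.

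Storage on the ISS was compared with storage on Earth to ask whether it altered the levels of these transcripts. None of the 10 passed edgeR's quasi-likelihood test, in which 0.0% of all tested genes fell under 0.05 after Benjamini-Hochberg adjustment, and none passed in DESeq2 or limma-voom. None had an unadjusted p under 0.05 either, where 0.609% of all tested genes did. If no gene differed and libraries varied independently, a share of about 0.05 of genes would be expected there. The share found was much smaller, so these p-values ran high, and the SEs and intervals may be wide. Why they ran high was not tested. In none of the 10 did the 3 Space libraries lie wholly above or below the 3 Ground libraries, where 3.59% of tested genes did. The median log2 fold change of Space over Ground was -0.032, with 3 genes higher and 7 lower in Space (Atr, Chek1 and Nbn turned higher when libraries were scaled by total counts, and the sign of 7 of the 10, all but Atm, Rad50 and Rad17, turned when some single library was left out), beside -0.0020 over all tested genes. Of all 15104 tested genes, 7361 were higher and 7743 lower in Space. The 95% intervals of the 10 ratios all lay within 0.732-fold and 1.28-fold, both bounds set by Chek2, and the p of each gene adjusted over all tested genes was 0.9999 in edgeR.

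**Figure D1:**
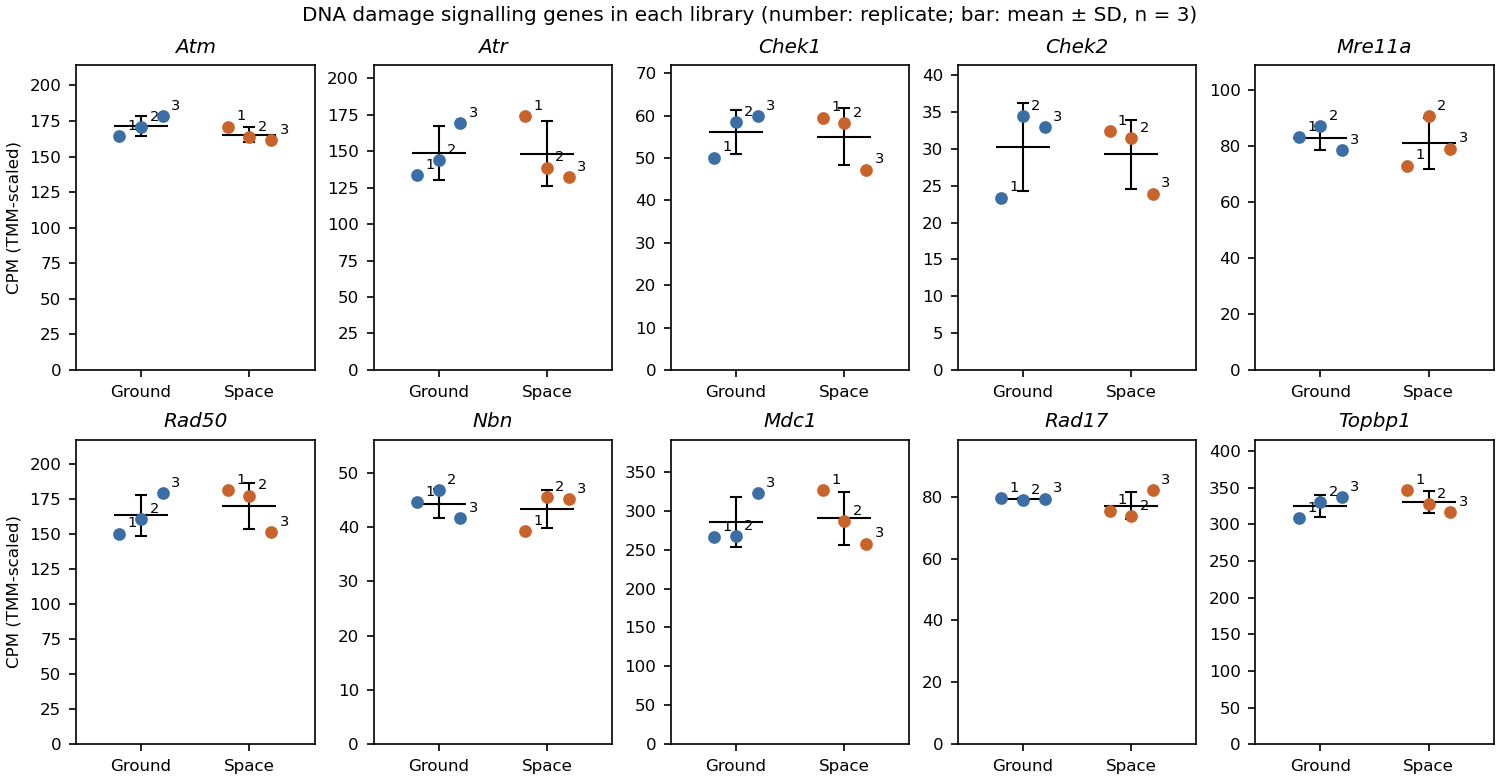
TMM-scaled CPM (vertical axis, from 0) of the 10 genes in the 3 Ground and 3 Space libraries, with replicate numbers beside the points and the mean ± SD of each group in black. The groups overlap in every panel, and the libraries of Chek2 spread from 23.4 to 34.4 CPM in Ground and from 23.9 to 32.4 CPM in Space.

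Of the apical kinases, Atm, which is activated at double-strand breaks, had the smallest SD of log2 CPM of the 10 genes. It was 0.054 over the 6 libraries, close to 0.056 for Rad17 and 0.060 for Topbp1. Throughout, values are given for replicates 1, 2 and 3 in that order. Atm had 164.5, 170.7 and 178.5 CPM in the Ground libraries, against 171.1, 163.7 and 161.5 CPM in the Space libraries. The Space values were interleaved with the Ground values. The group means were 171.2 ± 6.998 and 165.4 ± 5.03 CPM (SD, n = 3), and the log2 fold change was -0.050 (SE 0.056, 95% interval -0.18 to 0.081).

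Atr, the kinase of replication stress, varied more between libraries. It stood at 133.4, 144.0 and 169.5 CPM in the Ground libraries and at 174, 138.8 and 132.3 CPM in the Space libraries. The highest values of the 2 groups came from Ground-3 and Space-1 and were close to each other, so the groups covered nearly the same range. The means were 149.0 ± 18.6 and 148.4 ± 22.5 CPM (SD, n = 3) and the log2 fold change was -0.0052 (SE 0.12, 95% interval -0.29 to 0.28).

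The checkpoint kinases carry the signal to the cell cycle machinery. Chek1 had 50.1, 58.4 and 59.9 CPM in the Ground libraries and 59.5, 58.2 and 47.2 CPM in the Space libraries. Chek2 had 23.4, 34.4 and 32.9 CPM in the Ground libraries and 32.4, 31.4 and 23.9 CPM in the Space libraries. For both genes Ground-1 and Space-3 were the 2 lowest libraries, and the remaining 4 lay close together. The log2 fold change was -0.029 for Chek1 (SE 0.11, 95% interval -0.29 to 0.23) and -0.048 for Chek2 (SE 0.17, 95% interval -0.45 to 0.35). Chek2 had the widest interval of the 10 genes and the largest SD of log2 CPM over the 6 libraries, 0.25, against a median of 0.12 over the 10 genes and 0.15 over all tested genes. Its highest library exceeded its lowest 1.47-fold, and 31.5% of all tested genes had a larger SD.

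**Figure D2:**
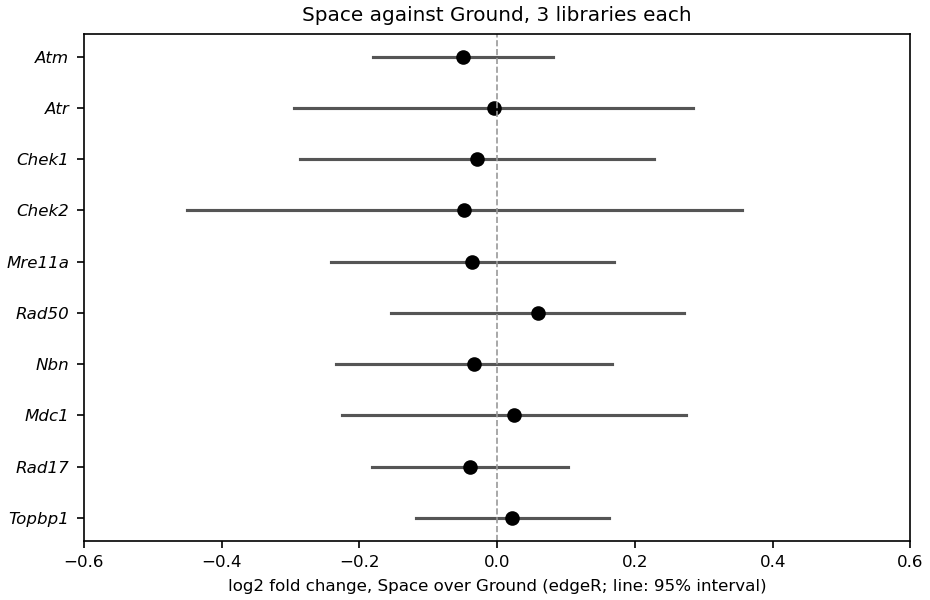
Log2 fold change of Space over Ground (horizontal axis) for each of the 10 genes, from edgeR with 3 libraries per group; the lines are 95% intervals. All 10 intervals include 0, and that of Chek2, from -0.45 to 0.35, is the widest.

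The 3 subunits of the break sensor did not vary in the same way between libraries. Rad50, the subunit that tethers DNA ends, had 150.3, 160.5 and 179.0 CPM in the Ground libraries and 181.3, 177.4 and 151.5 CPM in the Space libraries. Mre11a, the nuclease subunit, had 83.1, 87.2 and 78.6 CPM in the Ground libraries and 73.0, 90.7 and 79.1 CPM in the Space libraries. Nbn, the subunit that binds ATM, had 44.6, 46.8 and 41.6 CPM in the Ground libraries and 39.3, 45.6 and 45.2 CPM in the Space libraries. Ground-3 and Space-1 were thus the 2 highest libraries for Rad50 and the 2 lowest for Mre11a and Nbn. None of the 3 separated the groups, with log2 fold changes of 0.059 for Rad50 (SE 0.092), -0.036 for Mre11a (SE 0.089) and -0.034 for Nbn (SE 0.086).

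Ratios of counts within a library need no scaling between libraries, and 4 such ratios, chosen after the values were seen, are given without a test. Rad50 counts were 1.81, 1.84 and 2.28 times those of Mre11a in the Ground libraries and 2.48, 1.95 and 1.92 times in the Space libraries. Nbn counts, in contrast, stayed between 0.502 and 0.571 times those of Mre11a in all 6 libraries, with means of 0.535 ± 0.0042 in Ground and 0.537 ± 0.034 in Space (SD, n = 3). That Ground SD is smaller than the counting error of Nbn alone, 2.98% to 3.42%, would give. Between the apical kinases, Atr reached 0.811, 0.844 and 0.950 times the counts of Atm in the Ground libraries and 1.02, 0.848 and 0.819 times in the Space libraries. Chek2 counts were 0.467 to 0.590 times those of Chek1 over the 6 libraries, lowest in Ground-1 and highest in Ground-2.

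Mdc1, the scaffold that reads phosphorylated H2AX, had 265.6, 267 and 322.5 CPM in the Ground libraries and 326.3, 286 and 257.8 CPM in the Space libraries. The 2 highest values again belonged to Ground-3 and Space-1, one in each group. Its means of 285.2 ± 32.3 and 290.1 ± 34.4 CPM (SD, n = 3) gave a log2 fold change of 0.024 (SE 0.11, 95% interval -0.23 to 0.27).

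Of the Atr-branch factors, Rad17, the clamp loader subunit, was nearly level in Ground and more spread in Space. It had 79.5, 79.0 and 79.35 CPM in the Ground libraries and 75.5, 73.7 and 82.1 CPM in the Space libraries, a log2 fold change of -0.040 (SE 0.061, 95% interval -0.18 to 0.10). Of the Space libraries, 2 lay below all Ground libraries and the third lay above them. The Ground SD of Rad17, 0.276 CPM on a mean of 79.3, was smaller than its counting error of 2.21% to 2.69%. The difference in spread between the groups was not tested. Topbp1, which activates ATR, had 308.5, 330.5 and 336.9 CPM in the Ground libraries and 346.4, 327.7 and 316.9 CPM in the Space libraries. Its log2 fold change was 0.022 (SE 0.061, 95% interval -0.12 to 0.16).

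Scaled by length, Mdc1, Rad50 and Topbp1 formed an upper tier. Levels were CPM per kilobase of the union of a gene's annotated exons, averaged over all 6 libraries. In descending order they were 38.8 ± 4.04 for Mdc1, 31.0 ± 2.65 for Rad50 and 29.2 ± 1.21 for Topbp1 (SD, n = 6), of which Rad50 and Topbp1 did not differ beyond their spread. Nbn (17.3 ± 1.11) and Atm (16.3 ± 0.610) followed within each other's spread, then Mre11a (13.8 ± 1.08), Chek1 (11.99 ± 1.18), Chek2 (9.91 ± 1.61), Rad17 (9.68 ± 0.377) and Atr (6.29 ± 0.781). The order depended on the length definition. With the longest annotated transcript as length, Topbp1 rose to 62.8 ± 2.61, Rad17 to 27.3 ± 1.06 and Atr to 18.4 ± 2.28 CPM per kilobase. The exon union of Atr spans 23629 bases and its longest transcript 8102 bases, while those of Topbp1 span 11226 and 5224 bases and those of Rad17 8072 and 2860 bases. The other 7 genes moved by less than 1.5 times.

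**Figure D3:**
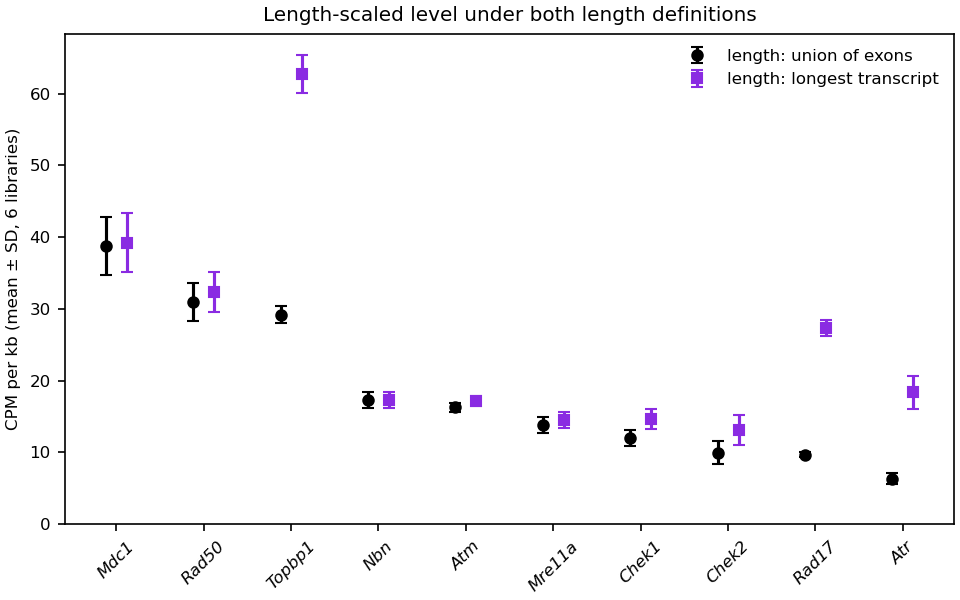
Length-scaled level of the 10 genes in CPM per kilobase (vertical axis, from 0; mean ± SD over 6 libraries), with the exon union (black) or the longest transcript (purple) as length. Topbp1, Rad17 and Atr move most between the definitions, from 29.2 to 62.8, 9.68 to 27.3 and 6.29 to 18.4.

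The libraries ranked alike for several of the genes, across the groups. For 6 of the 10 genes, Atm, Atr, Chek1, Mdc1, Rad50 and Topbp1, the 2 highest libraries were Ground-3 and Space-1, an order seen in 23.5% of all tested genes. For Mre11a and Nbn these were the 2 lowest libraries, as in 23.5% of tested genes. Some of these ranks rest on gaps within counting error. Atm had 171.1 CPM in Space-1 and 170.7 in Ground-2, with a counting error of 1.55% to 1.80%. Mre11a had 78.6 CPM in Ground-3 and 79.1 in Space-3, with a counting error of 2.23% to 2.47%. Ground-1 and Space-3 were the 2 lowest for Atr, Chek1, Chek2, Mdc1, Rad50 and Topbp1, as in 19.7% of tested genes. The full order, with Ground-1 and Space-3 lowest and Ground-3 and Space-1 highest, held for 5 of the 10 genes and for 10.2% of tested genes. Gaps within counting error also decided it for Chek1, Rad50 and Mdc1. Chek1 had 59.5 CPM in Space-1 and 58.4 in Ground-2 (counting error 2.63% to 3.02%). Rad50 had 179.0 CPM in Ground-3 and 177.4 in Space-2 (1.51% to 1.82%), and Mdc1 265.6 in Ground-1 and 267 in Ground-2 (1.12% to 1.41%). These library pairs were picked out after the values were seen and are no groups of the study, so no test was run on them. Over all tested genes the deviations from the group means correlated between Ground-3 and Space-1 (Pearson's r = 0.67) and between Ground-1 and Space-3 (r = 0.64). The correlation was weaker between Ground-2 and Space-2 (r = 0.33). Each r is across 15104 genes, which are not independent.

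**Figure D4:**
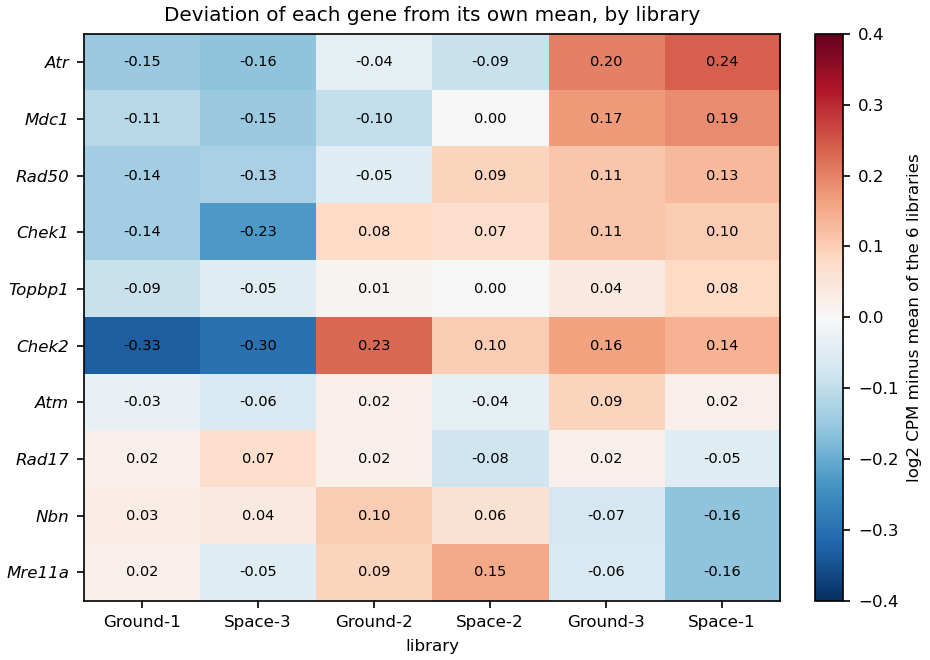
Log2 CPM of each gene minus its own mean over the 6 libraries, as a colour and a printed value; columns are libraries, ordered so that those with similar profiles stand together, and rows are genes. Chek2 reaches -0.33 in Ground-1 and -0.30 in Space-3, and Nbn and Mre11a are at -0.16 in Space-1, where Atr is at 0.24.

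Proliferation genes showed the lower end of this order. Of 13 such genes, among them Mki67, Top2a and Ccna2, 10 had Ground-1 and Space-3 as their 2 lowest libraries, and their summed level was 4217 CPM in Ground-1 and 4199 in Space-3 against 4837 to 4979 in the other Ground and 4843 to 4856 in the other Space libraries. Ground-3 and Space-1 were the 2 highest for 3 of the 13, near the 23.5% of all tested genes, and the full order held for 3 of the 13. The pair Ground-1 and Space-3 was lowest for 4 of 11 spermatogonial markers and 0 of 15 feeder markers. Of the feeder markers, 7 had Ground-3 and Space-1 as their 2 lowest. The part of proliferation or of feeder RNA in the library order of the damage signalling genes was not tested.

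Genes whose profile was most like that of Chek2, the most variable of the 10, were chosen by the highest Pearson's r of log2 CPM over the 6 libraries among 9500 other genes with a mean of at least 10 CPM. They were Kif2c (r = 0.998), a kinesin that corrects microtubule attachments in mitosis, Cdca8 (r = 0.997), a subunit of the chromosomal passenger complex, and Hells (r = 0.996), a chromatin remodeller. With only 6 libraries, 616 genes (6.48%) had an r over 0.9, so the likeness is a description. Kif2c had 118.8, 157.3 and 153.4 CPM in the Ground libraries and 152.8, 149.9 and 122.6 in the Space libraries, low in the same libraries as Chek2.

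Promoter windows are shown for 6 of the 10 genes, because Atr, Chek1, Mdc1 and Topbp1 shared the full library order and Chek2 was low in the same libraries. Mre11a was added because it was lowest in Ground-3 and Space-1, where Atr, Chek1, Mdc1 and Topbp1 were highest. Each window holds 250 bases before and 50 after the annotated start, from RefSeq on GRCm38.p6, which matched 8 of the 10 genes. They were searched on both strands for the letters of an E2F-type site (TTTGGCGC, TTTGCCGC, TTTCGCGC or TTTCCCGC) and for CCAAT, with no overlap between the motifs in these windows. Capitals mark the matches, in either orientation.
Chek2, chr5:110839733-110840032, plus strand: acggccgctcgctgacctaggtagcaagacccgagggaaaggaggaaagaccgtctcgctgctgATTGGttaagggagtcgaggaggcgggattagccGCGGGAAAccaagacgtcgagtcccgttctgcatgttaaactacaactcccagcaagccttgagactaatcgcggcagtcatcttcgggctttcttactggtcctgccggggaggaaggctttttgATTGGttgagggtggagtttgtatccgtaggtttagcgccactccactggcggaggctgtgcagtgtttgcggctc
Mdc1, chr17:35841248-35841547, plus strand: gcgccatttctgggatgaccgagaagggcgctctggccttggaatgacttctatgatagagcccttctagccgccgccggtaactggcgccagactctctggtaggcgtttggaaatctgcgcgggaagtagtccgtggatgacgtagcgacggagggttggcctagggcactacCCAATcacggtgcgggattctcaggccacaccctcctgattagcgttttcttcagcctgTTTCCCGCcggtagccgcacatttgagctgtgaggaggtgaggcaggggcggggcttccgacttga
Topbp1, chr9:103305077-103305376, plus strand: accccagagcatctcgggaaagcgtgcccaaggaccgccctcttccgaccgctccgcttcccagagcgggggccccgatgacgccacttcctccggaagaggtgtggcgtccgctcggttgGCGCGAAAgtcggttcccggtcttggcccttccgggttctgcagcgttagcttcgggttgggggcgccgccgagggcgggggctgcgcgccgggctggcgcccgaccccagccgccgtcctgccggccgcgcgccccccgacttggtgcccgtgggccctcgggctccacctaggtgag
Atr, chr9:95857347-95857646, plus strand: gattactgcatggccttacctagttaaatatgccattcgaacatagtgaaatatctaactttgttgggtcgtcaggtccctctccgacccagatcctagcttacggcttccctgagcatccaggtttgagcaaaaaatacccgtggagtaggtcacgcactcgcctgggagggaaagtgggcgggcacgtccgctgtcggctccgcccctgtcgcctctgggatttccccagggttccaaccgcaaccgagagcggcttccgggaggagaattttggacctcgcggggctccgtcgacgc
Chek1, chr9:36726609-36726908, minus strand: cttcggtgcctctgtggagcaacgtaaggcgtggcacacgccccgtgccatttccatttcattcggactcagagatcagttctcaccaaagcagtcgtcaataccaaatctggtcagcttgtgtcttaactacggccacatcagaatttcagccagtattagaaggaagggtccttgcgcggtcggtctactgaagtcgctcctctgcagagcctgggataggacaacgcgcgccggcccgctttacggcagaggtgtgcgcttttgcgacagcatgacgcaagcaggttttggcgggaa
Mre11a, chr9:14784404-14784703, plus strand: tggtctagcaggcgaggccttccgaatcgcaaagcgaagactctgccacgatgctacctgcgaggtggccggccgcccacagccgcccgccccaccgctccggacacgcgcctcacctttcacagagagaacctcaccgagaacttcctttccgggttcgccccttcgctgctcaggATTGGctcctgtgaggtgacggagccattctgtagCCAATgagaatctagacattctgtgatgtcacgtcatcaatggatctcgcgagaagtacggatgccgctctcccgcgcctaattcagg

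Of all 8 matched genes, the E2F-type letters occurred once each in the windows of Chek2, Mdc1 and Topbp1, and in 2.26% of all 32851 promoter windows of this length. CCAAT occurred 2 times in Chek2, 2 times in Mre11a and once each in Mdc1 and Atm, and in 37.4% of all windows. Neither was found in the windows of Atr, Chek1 or Rad17, which says only that these letters are not in them. The Chek1 window is cut after the letters GCGGGAA, which begin a reverse match to TTTCCCGC, so a match across its edge could not be seen. It also lies wholly inside the GENCODE gene, which starts at 36727065 on the minus strand. The bases before that start were not searched. A match is a description of the sequence and no evidence of binding.

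Further genes of the pathway were listed by role, and none of the 51 passed the test (edgeR adjusted p = 0.9999 for each) or had an unadjusted p under 0.05. In Space, 18 of the 51 were higher and 33 lower, with a median log2 fold change of -0.0092 and a range of -0.17 to 0.058. Over all 15104 tested genes, 7361 were higher and 7743 lower. In 1 of the 51 the groups did not overlap, beside 3.59% of all tested genes. That gene was Rnf8, the ubiquitin ligase that acts after Mdc1, with 57.3, 56.9 and 56.1 CPM in the Ground libraries and 52.0, 55.5 and 51.6 CPM in the Space libraries (log2 fold change -0.098, SE 0.062).

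Of the 14 mediators at breaks 6 were higher and 8 lower in Space (median -0.0082), and the highest mean CPM was that of Trp53bp1, a mediator that limits end resection, whose group means were 322.1 ± 12.5 CPM for Ground and 329.4 ± 21.4 for Space (SD, n = 3). Of the 16 genes of Atr activation 3 were higher and 13 lower (median -0.014). Among them Rad9a, a subunit of the clamp that Rad17 loads, had the smallest p, with 64.1, 63.9 and 51.7 CPM in the Ground libraries and 43.0, 55.8 and 61.4 CPM in the Space libraries, a log2 fold change of -0.17 (SE 0.14). It was lowest in Ground-3 and Space-1, the libraries in which Atr was highest. Rpa2, a subunit of the protein that coats single-stranded DNA, averaged 253.1 ± 32.4 over the Ground and 248.4 ± 23.7 CPM over the Space libraries (SD, n = 3), and Rpa1, a further subunit, had nearly the same mean over all libraries (250.8 CPM for Rpa2 and 250.6 for Rpa1). Ground-1 and Space-3 were the 2 lowest libraries for 11 of these 16 genes.

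Of 8 direct or indirect targets of the checkpoint kinases, Ground-1 and Space-3 were lowest for 7, beside 19.7% of all tested genes. Ground-3 and Space-1 were the 2 highest for 1 of 8, beside 23.5%. Cdk1, the kinase that drives entry into mitosis, had 53.6, 71.7 and 74.9 CPM in the Ground libraries and 67.7, 64.5 and 55.5 CPM in the Space libraries (log2 fold change -0.093, SE 0.13). Wee1, which holds Cdk1 inactive, had the highest mean CPM of the 8, with 124.2, 161.3 and 154.3 CPM in the Ground libraries and 158.2, 152.7 and 126.1 CPM in the Space libraries. Of these 8 genes 2 were higher and 6 lower in Space (median -0.020).

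Among 7 related kinases and chaperones of this kinase family 4 were higher and 3 lower in Space (median 0.0051). Prkdc, the kinase of end joining, averaged 143.1 ± 11.6 CPM over the Ground and 133.3 ± 10.3 over the Space libraries (SD, n = 3), a change of -0.10 on the log2 scale with an SE of 0.083, and Trrap, a pseudokinase of the family, had the highest mean CPM with 545.8 ± 32.7 and 544.4 ± 19.6 CPM. Of 6 phosphatase genes, whose products can reverse the signal, 3 were higher and 3 lower (median -0.0053). Ppp6c had the smallest p of these (log2 fold change 0.028, SE 0.069). Ppp1ca had the highest mean CPM of the 6 and ran against Atr, with 577.9, 523.1 and 382.0 CPM in the Ground libraries and 381.3, 508.0 and 582.6 CPM in the Space libraries.

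**Figure D5:**
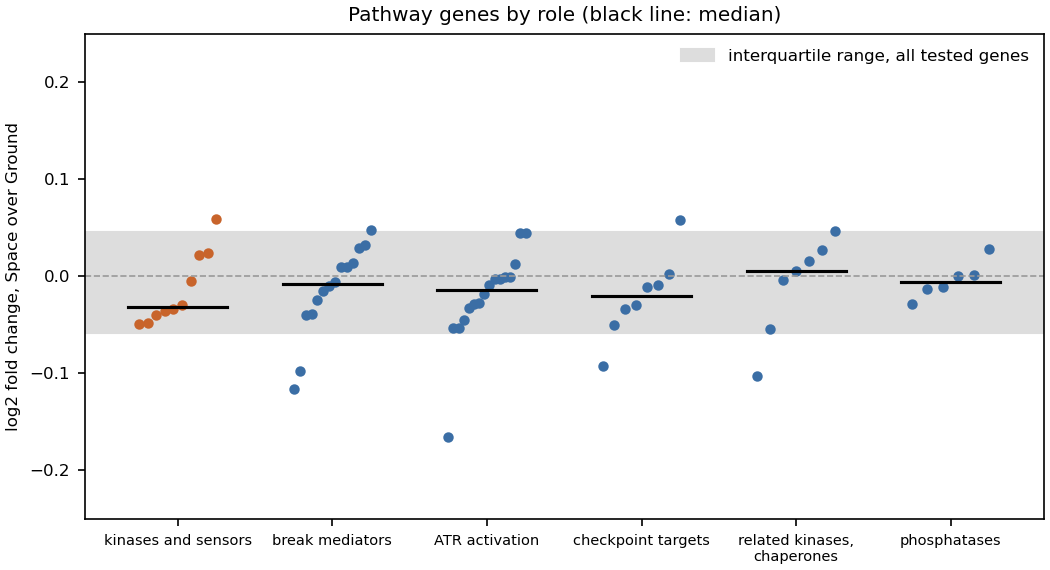
Log2 fold change of Space over Ground (vertical axis) for the 10 kinases and sensors (orange) and 51 further pathway genes (blue) by role, with black lines at the medians and a grey band from -0.059 to 0.046 for the interquartile range of all tested genes. All medians lie between -0.032 and 0.0051, and Rad9a, at -0.17, is the lowest point.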

How the data were processed

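RNA-seq was done on 3 Space and 3 Ground libraries of GS cells. The authors deposited raw counts per gene, made per the methods of the study by trimming with cutadapt and aligning to mm10 with HISAT2 and GENCODE M21. The submitters' processing notes name HTSeq 2.0.2; its settings are not given in the sources used here, and the library kit and sequencer named in the labels are not those of the methods. Values were whole numbers with 19015985 to 24110916 counts per library, and nothing was pooled. Libraries were grouped by title.

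Counts were filtered with filterByExpr, scaled by TMM and tested with edgeR 4.0.16 in R 4.3.3 (quasi-likelihood F test, 2-sided, no replicate block, Benjamini-Hochberg adjustment over 15104 genes, threshold 0.05). SE is the log2 fold change divided by the square root of F, and 95% intervals used the t distribution. Log2 CPM used a prior count of 2. Positions, lengths and overlaps came from GENCODE M21, counted from 1. Alternatives were RLE, total counts, other filters, no mitochondrial genes, DESeq2 1.42.0, limma-voom (limma 3.58.1), a replicate block and leaving out libraries. The procedure was run on simulated data with independent libraries and fold changes larger than those of the 10 genes. That run says nothing on changes as small as theirs or on spread shared across the groups. The genes and lists were chosen with earlier results of these data known. Named from each role list were the gene with the smallest p and the one with the highest mean CPM. For the most variable of the 10 genes, the 3 most similar genes were named. Abraxas1 was matched through a RefSeq synonym (listed as Fam175a). Same-numbered libraries were checked for pairing, and the check is given with the alternatives.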

Additional observations from a re-analysis of the deposited data

How the results depend on the processing

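No gene passed the threshold under any of the 15 alternatives, among the 10 genes, the 51 further pathway genes or all tested genes, where 45 (DESeq2) to 192 (no filter) genes had an unadjusted p under 0.05 and the fits that left out 1 library had 64 to 161. Of the same-numbered libraries, Ground-2 and Space-2 deviated together (r = 0.33). Replicates 1 and 3 deviated in opposite directions (r of -0.54 and -0.61). Within a group, the deviations of a gene sum to 0. Positive r of Ground-3 with Space-1 (0.67) and Ground-1 with Space-3 (0.64) therefore forces some negative r among other pairs. With the replicate number as replicate block 0 genes passed, with 63 at an unadjusted p under 0.05. This block cannot take out the spread that Ground-3 shares with Space-1 or Ground-1 with Space-3, because it joins other libraries. Atm, Rad50 and Rad17 kept their sign in all 15 alternatives. Signs of changes near 0 turned in others, with no adjusted p under 0.9997. With total counts, which shift the median of all genes to 0.033, Atr was 0.031, Chek1 0.0066 and Nbn 0.0024. Leaving out both Ground-2 and Space-2, an alternative chosen after seeing the data, gave Atr 0.020, Chek2 0.0042 and Mdc1 -0.0065. Without 1 library the log2 fold changes ranged from -0.14 to 0.10 for Atr, -0.11 to 0.070 for Chek1, -0.20 to 0.080 for Chek2, -0.069 to 0.13 for Mdc1, -0.072 to 0.032 for Nbn, -0.13 to 0.033 for Mre11a, -0.015 to 0.054 for Topbp1, 0.0021 to 0.14 for Rad50, -0.078 to -0.013 for Atm and -0.087 to -0.0087 for Rad17. The cause was not tested. The difference in mitochondrial share ranged from -4.46 to -0.246 percentage points, nearest to 0 without Ground-2. The printed intervals rest on 3 libraries per group and are not limits of detection.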
